A study of Rattus with 9 samples.

Results

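The chemokines that draw effector T cells into inflamed tissue, and their receptors, were followed in rat bile duct after liver transplantation (LT). The genes were the 3 ligands of Cxcr3, which are Cxcl9, Cxcl10 and Cxcl11, together with Cxcl16, which is the ligand of Cxcr6, and the receptors Cxcr3 and Cxcr6. These 6 genes were chosen by symbol, and each symbol was found once among the 23836 gene symbols measured. Their identifiers were ENSRNOG00000022242 for Cxcl9, ENSRNOG00000022256 for Cxcl10, ENSRNOG00000022298 for Cxcl11, ENSRNOG00000026647 for Cxcl16, ENSRNOG00000003305 for Cxcr3 and ENSRNOG00000006319 for Cxcr6. In the GRCr8 gene table, Cxcl11, Cxcl10 and Cxcl9 were direct neighbours on chromosome 14, Cxcl16 lay on chromosome 10, Cxcr6 on chromosome 8 and Cxcr3 on chromosome X.

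Single cells of bile duct were counted by 10x 3' scRNA-seq in 9 samples. The sham group had 3 samples (sham1, sham2 and sham3). The ctrl group had received a liver graft with ischemic injury, and the treat group had received the same operation with tying of the splenic and gastroduodenal arteries, which raises the arterial flow to the graft. Days 1, 3 and 7 post-LT were sampled, with 1 sample per day in either transplanted group. The labels give no strain, sex, age or number of animals for a sample, and the study's methods name Sprague-Dawley rats of both sexes, between 6 and 8 weeks of age, among its animals. A sample held 1 library in the sham group and up to 3 libraries after LT, and nothing in the labels says that these came from separate rats, so libraries were summed and the p-values below measure only the spread between these samples. With 1 sample per day and group, the spread within a transplanted group includes the change over time.

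Cxcl9, Cxcl10 and Cxcl11 are small secreted proteins that interferon-gamma, the main product of type 1 T cells and natural killer (NK) cells, switches on in many cells. They bind Cxcr3, a receptor of activated T cells and NK cells, which in turn carry interferon-gamma to the site. Cxcl16 is made as a membrane protein that can be shed, and Cxcr6 marks T cells and innate lymphocytes that stay in tissue, the liver among them.

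In all, 139396 cells with 832857880 UMIs were kept, from 2273 to 31649 cells and from 9052702 to 189567846 UMIs in a sample. Sham1 stood apart from the other sham samples, with 2273 cells of which 3.74% were fibroblast-like, against 47.2% in sham3. In the ctrl day 3 sample, the limit on hemoglobin removed 84.8% and 92.0% of the barcodes of libraries 2 and 3, so that its values rested mainly on library 1. Libraries shared at most 51 barcodes in a pair (1.25% of the smaller library), and 0 of the 2499 cell pairs with a common barcode had the same number of UMIs and genes. Clusters were formed without the 6 genes and their partner lists and named from marker lists. This gave 15 types, written here as T cell-like and so on. A further 6734 cells in 10 clusters stayed unnamed, and 60 erythroid cell-like cells of 1 more cluster were counted over all cells but not described as a type.

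Over all cells, Cxcl9 and Cxcl11 were low in the sham samples and on day 1 and high on days 3 and 7. Cxcl10 was higher in sham2 and sham3 than on day 1, and it was highest on days 3 and 7. A level is given here as CPM, which is the UMIs of the gene scaled to a total of 1000000 UMIs in the same cells. Cxcl9, which is the ligand most closely tied to interferon-gamma, stood at 2.98, 16.4 and 12.8 CPM in sham1 to sham3. It was at 2.91, 91.3 and 224 CPM on days 1, 3 and 7 in ctrl and at 4.44, 816 and 500.3 CPM in treat. Every sample of days 3 and 7 lay above every sham and day 1 sample for this gene. Single libraries weighed on these levels. Of 1314 levels taken again with 1 library left out of its sample, over all cells and by type, 238 moved by more than 1.5-fold, and such shifts are given below beside the values that the text compares. Cxcl9 was at 0.375 CPM in ctrl day 1 and at 1.03 CPM in treat day 1 without library 1 of the sample, and at 46.2 CPM in ctrl day 3 without its library 1.

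Cxcl10, which also answers to type I interferon and to NF-kappaB, was at 36.8, 136 and 138 CPM in the sham samples. After LT it was at 42.1, 265 and 273 CPM in ctrl and at 30.1, 1250 and 445 CPM in treat. Cxcl11, which binds Cxcr3 tightly, was at 1.55, 3.03 and 2.55 CPM in sham, at 3.03, 72.2 and 98.2 CPM in ctrl and at 4.51, 551 and 236 CPM in treat. For both genes the samples of days 3 and 7 lay above all others, and treat day 3 was the highest sample. Without library 1, Cxcl11 was at 0.354 CPM in ctrl day 1, 13.3 CPM in ctrl day 3 and 0.465 CPM in treat day 1, and Cxcl10 at 18.3 CPM in treat day 1.

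Cxcl16 differed less between samples. It was at 168, 65.9 and 67.1 CPM in sham, at 85.1, 93 and 111 CPM in ctrl and at 62.2, 91.9 and 108 CPM in treat. Sham1 was the highest sample, and the 3 groups overlapped.

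The receptors were counted at low levels. Cxcr3 was at 4.86, 1.07 and 0.940 CPM in sham, at 0.968, 5.56 and 14.2 CPM in ctrl and at 1.26, 8.65 and 15.3 CPM in treat. Cxcr6 was at 2.76, 1.89 and 1.33 CPM in sham, at 0.937, 1.58 and 3.48 CPM in ctrl and at 0.770, 1.15 and 3.05 CPM in treat. Both receptors were lowest on day 1 and highest on day 7 within each transplanted group. For Cxcr6 all sham samples lay above both day 1 samples. For Cxcr3 sham1 lay above both and sham2 above that of ctrl alone. Sham1 held 44 UMIs of Cxcr3 and 25 of Cxcr6. Without library 1, treat day 7 was at 7.79 CPM for Cxcr3 and 1.86 CPM for Cxcr6, and Cxcr3 was at 0.375 CPM in ctrl day 1 and 0.783 CPM in treat day 1.

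**Figure D1:**
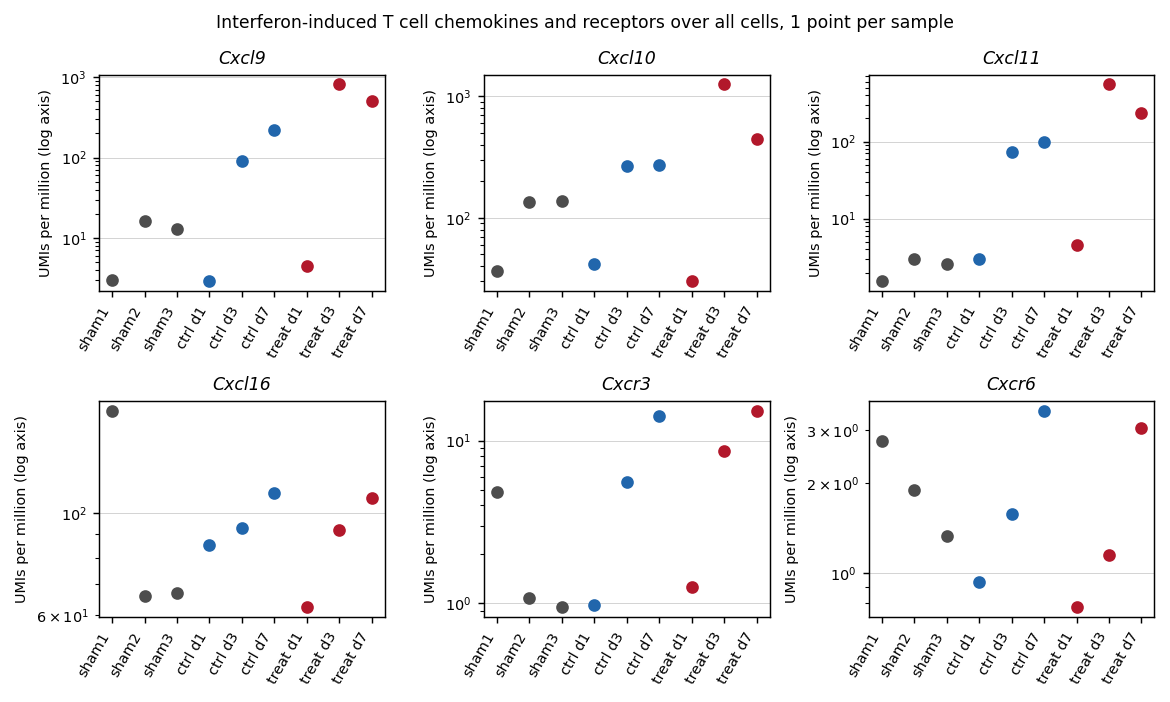
Level of each gene over all cells, in CPM on a log axis, with 1 point for each of the 9 samples. The 3 Cxcr3 ligands and Cxcr3 rise from day 1 to days 3 and 7 in both transplanted groups, while Cxcl16 stays between 62.2 and 168 CPM.

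The day comparison was made over both transplanted groups, with 2 samples a day. By edgeR's quasi-likelihood test, 0 of the 6 genes passed an adjusted p of 0.05 on day 7 against day 1 over all cells, where 0% of all 16207 genes tested passed. At an unadjusted p under 0.05 the count was 5, and DESeq2 called 5. Shares of all genes at an unadjusted p under 0.05 are not given in this text, so such counts are descriptions. Counts of DESeq2 over all genes are given at the end. The log2 fold changes were 6.40 ± 0.87 (SE) for Cxcl9 (adjusted p = 0.0661), 5.21 ± 0.75 for Cxcl11 (adjusted p = 0.0708) and 3.06 ± 0.75 for Cxcl10 (adjusted p = 0.126). For the receptors they were 3.66 ± 0.30 for Cxcr3 (adjusted p = 0.0523) and 1.85 ± 0.30 for Cxcr6 (adjusted p = 0.0809). Cxcl16 had a log2 fold change of 0.49 ± 0.21 (adjusted p = 0.259). A fit without 1 of the day 1 samples leaves a single sample on that day, so calls of such fits are not taken as results.

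Day 3 against day 1 gave 0 calls of 6 by edgeR, again with 0% of all genes called, 4 at an unadjusted p under 0.05 and 4 by DESeq2. The log2 fold changes were 6.39 ± 0.89 for Cxcl9 (adjusted p = 0.155), 5.85 ± 0.79 for Cxcl11 (adjusted p = 0.155), 4.06 ± 0.81 for Cxcl10 (adjusted p = 0.219) and 2.65 ± 0.29 for Cxcr3 (adjusted p = 0.148). For each of the 6 genes, both samples of day 3 and both of day 7 lay above both samples of day 1. Over all genes tested, 33.6% had both samples of day 7 above both of day 1, and 20.7% had both of day 3 above them.

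Against sham, with days 1, 3 and 7 counted together, the groups overlapped for 6 of the 6 genes in ctrl and for 5 in treat. In ctrl against sham, edgeR called 0 of the 6 genes over all cells, where 8.7% of all genes were called; 1 had an unadjusted p under 0.05 and DESeq2 called 1. Cxcl11 came nearest, at a mean of 57.8 ± 49.2 CPM (SD, n = 3) in ctrl and 2.38 ± 0.76 CPM in sham, with a log2 fold change of 4.86 ± 1.62 (adjusted p = 0.0922 by edgeR). In treat against sham the counts were 0 by edgeR with 0% of all genes, 2 at an unadjusted p under 0.05 and 2 by DESeq2. Cxcl11 was at 264 ± 274 CPM (SD, n = 3) in treat, with a log2 fold change of 7.02 ± 1.79 against sham (adjusted p = 0.0935 by edgeR). Its groups did not overlap, which held for 1 of the 6 genes and for 34.3% of all genes tested. Treat day 1 was at 4.51 CPM, against up to 3.03 CPM in sham. Without its library 1, treat day 1 lay under all sham samples, and the groups then overlapped.

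The levels over all cells mix the share of each cell type with the level inside it. Within types, member and type pairs were tested where every sample of the fit had at least 20 cells of the type. On day 7 against day 1, 10 types could be fitted and 44 of 60 pairs had enough counts. Of these 44 pairs, 17 rose and 1 fell, over 8 types, where 7.81% of all gene and type pairs were called. On day 3 against day 1, 14 of 44 pairs rose and 0 fell, over 7 types, where 3.02% of all pairs were called. The 32 calls are described by type below.

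Endothelial cells line the vessels through which T cells enter, and the EC-like cells held the highest levels of all 3 Cxcr3 ligands among the named types in each of the 4 samples of days 3 and 7. For Cxcl10 this order changed in single libraries. In library 2 of treat day 3, neutrophil-like cells were at 4294 CPM and EC-like cells at 3804 CPM. In library 3 of ctrl day 7, lymphatic EC-like cells were at 2298 CPM and EC-like cells at 1557 CPM. Summed over libraries, lymphatic EC-like cells held Cxcl10 at 844 CPM in ctrl day 7 and at 979 CPM in treat day 7. Cxcl9 in EC-like cells was at 8.44, 101 and 147 CPM in the sham samples. It was at 6.45, 1263 and 1596 CPM on days 1, 3 and 7 in ctrl and at 9.15, 6648 and 3734 CPM in treat. Day 1 therefore lay at the level of sham1 and under that of sham2 and sham3 in both groups, and days 3 and 7 lay above all sham samples.

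Cxcl11 in EC-like cells was at 0.768, 7.27 and 14.6 CPM in sham, at 2.76, 558 and 910 CPM in ctrl and at 5.63, 4544 and 2571 CPM in treat. Cxcl10 was at 41.5, 677 and 859 CPM in sham, at 48.2, 1177 and 934 CPM in ctrl and at 36.3, 4713 and 1726 CPM in treat. Cxcl10 in the EC-like cells of sham2 and sham3 thus came close to the ctrl samples of days 3 and 7, whereas Cxcl9 and Cxcl11 did not. Without library 3 of ctrl day 7, Cxcl11 there was at 562 CPM in place of 910. Cxcl16 in these cells was between 27.4 and 83.7 CPM in all samples.

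All 3 Cxcr3 ligands rose in EC-like cells by edgeR. On day 7 against day 1, where 4.36% of the genes tested in EC-like cells were called, the log2 fold changes were 8.33 ± 0.62 (SE) for Cxcl9 (adjusted p = 0.0035), 8.79 ± 0.67 for Cxcl11 (adjusted p = 0.0035) and 4.71 ± 0.64 for Cxcl10 (adjusted p = 0.0194). On day 3 against day 1, where 0.594% of the genes were called, they were 8.72 ± 0.63 for Cxcl9 (adjusted p = 0.0060), 8.98 ± 0.68 for Cxcl11 (adjusted p = 0.0060) and 5.81 ± 0.69 for Cxcl10 (adjusted p = 0.0188). Without the treat day 1 sample the adjusted p was 0.0763 for Cxcl9 and Cxcl11 on day 7, 0.139 for both on day 3, and 0.0833 and 0.147 for Cxcl10. Without ctrl day 7 the adjusted p of Cxcl10 on day 7 was 0.237, and without treat day 7 it was 0.0732; on day 3 it was 0.066 without ctrl day 7.

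Levels were also compared between single libraries. Cxcl9 in EC-like cells was between 3.96 and 20.4 CPM in the 6 libraries of day 1, between 942 and 2777 CPM in the 3 libraries of ctrl day 7, at 5368 and 7581 CPM in the 2 libraries of treat day 3 and between 3372 and 4498 CPM in the 3 libraries of treat day 7. The ctrl day 3 value rested on 1 library with 195 EC-like cells, at 1295 CPM. Without library 1 of treat day 1 the sample was at 4.68 CPM in place of 9.15. No library of day 1 reached a library of day 3 or day 7.

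**Figure D2:**
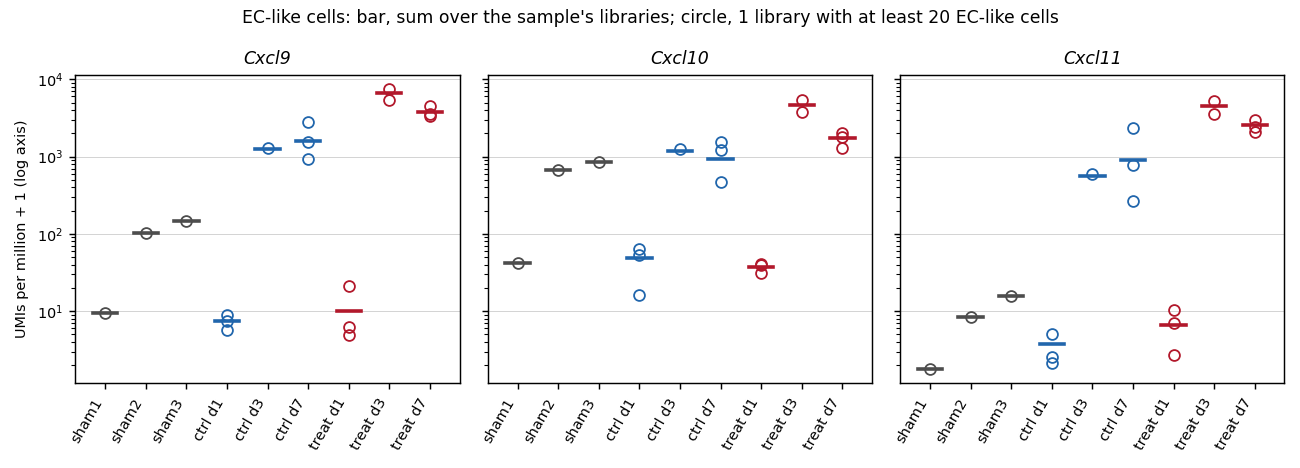
Levels of Cxcl9, Cxcl10 and Cxcl11 in EC-like cells, in CPM plus 1 on a log axis. Bars show the sum over the libraries of a sample and circles show single libraries with at least 20 EC-like cells; the circles of days 3 and 7 lie above those of day 1 for all 3 genes.

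To compare shares of cells, each cell was thinned to 1000 UMIs. A UMI of at least 1 of the 3 Cxcr3 ligands was then found in 3.12%, 22.8% and 28.1% of EC-like cells in sham1 to sham3. The share was 3.21%, 46.9% and 55.8% on days 1, 3 and 7 in ctrl and 2.31%, 86.4% and 83.2% in treat. All 3 ligands together were found in at most 0.204% of EC-like cells in the sham and day 1 samples, in 11.5% and 10.1% in ctrl on days 3 and 7, and in 46.3% and 28.5% in treat. Of the EC-like cells with a UMI of Cxcl11, between 79.5% and 94.2% also had one of Cxcl9 on days 3 and 7.

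Free RNA gives some UMIs in cells that do not make a gene. In T cell-like cells, Cxcl9 was found in at most 0.813% of thinned cells in any sample, against 34.4% to 73.3% of EC-like cells on days 3 and 7. Before thinning, Cxcl9 was seen in 81.5% of the EC-like cells of treat day 3 (median of 3266 UMIs per cell) and in 4.54% of its T cell-like cells (median of 4657 UMIs).

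**Figure D3:**
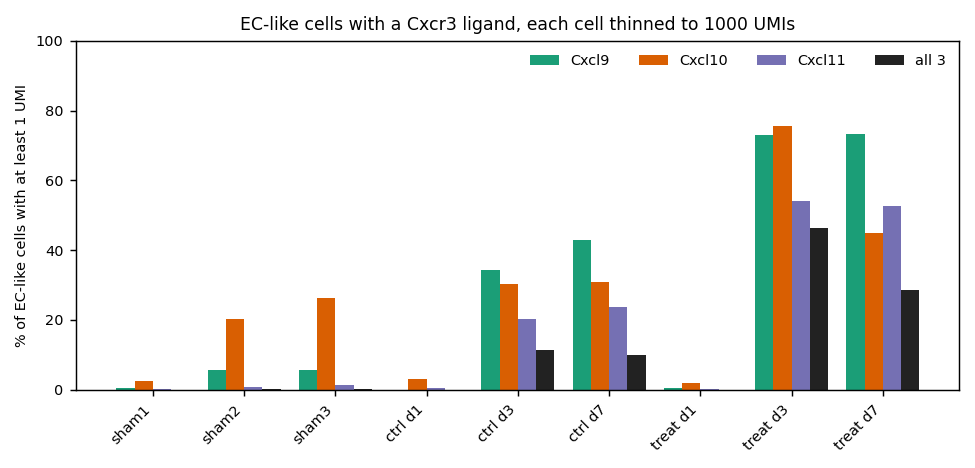
Share of EC-like cells, in percent, with at least 1 UMI of Cxcl9, of Cxcl10, of Cxcl11 or of all 3 after each cell was thinned to 1000 UMIs, for the 9 samples. The share with all 3 is at most 0.204% in the sham and day 1 samples and reaches 46.3% in treat day 3.

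EC-like cells were 4.6% of the cells of the 4 samples of days 3 and 7 on average, yet held 42.6% of all Cxcl9 UMIs (range 28.2% to 56.8%) and 43.2% of all Cxcl11 UMIs (range 31.7% to 58.7%). Their share of Cxcl10 UMIs was 18.4% (range 13.5% to 20.9%). Fibroblast-like cells held 20.2% of the Cxcl9 UMIs on those days, and epithelial-like cells 24.2% of the Cxcl10 UMIs. Monocyte-like cells held 19.6% of the Cxcl11 UMIs and 10.6% of the Cxcl10 UMIs, and macrophage-like cells held 13.7% and 12.3%.

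Fibroblast-like cells, the collagen-making cells of the duct wall, carried Cxcl9 at up to 21.3 CPM in sham. It was at 7.70, 68.3 and 742 CPM on days 1, 3 and 7 in ctrl and at 1.77, 1917 and 1441 CPM in treat. Without library 1 it was at 2.61 CPM in ctrl day 1, 24.5 CPM in ctrl day 3 and 0.919 CPM in treat day 1. On day 7 against day 1, where 30.6% of the genes were called in this type, Cxcl9 (log2 fold change 7.41 ± 1.67 (SE), adjusted p = 0.0175), Cxcl10 (4.97 ± 0.92, adjusted p = 0.0092) and Cxcl11 (9.11 ± 2.01, adjusted p = 0.0162) rose by edgeR. On day 3 against day 1, with 20.4% of the genes called, the adjusted p was 0.0398 for Cxcl9, 0.014 for Cxcl10 and 0.0279 for Cxcl11. Most fibroblast-like cells came from cluster 6 in sham, clusters 24 and 8 on day 1 in ctrl and treat, and cluster 14 on days 3 and 7, so different clusters were compared. Without ctrl day 7, Cxcl9 (adjusted p = 0.118) and Cxcl10 (adjusted p = 0.0684) were not called on day 7, nor was Cxcl9 on day 3 (adjusted p = 0.0508; 0.0674 without treat day 7). Without treat day 1, Cxcl11 was not called on day 7 (adjusted p = 0.145), and on day 3 the adjusted p was 0.0746 for Cxcl9, 0.0532 for Cxcl10 and 0.281 for Cxcl11. On day 3 Cxcl9 had an adjusted p of 0.0501 with doublets kept, and with free RNA subtracted Cxcl9 had 0.0524 and Cxcl11 0.0511.

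Smooth muscle-like cells, with 9 cells in ctrl day 3, were not tested over days. Their Cxcl9 was at 0 CPM in the 3 sham samples, at 0.40 and 0.79 CPM on day 1, at 2354 CPM in treat day 3, and at 305 and 1399 CPM on day 7 in ctrl and treat. The day 7 values moved with the library left out, to 600 CPM in ctrl without library 2 and to 448 and 2678 CPM in treat without libraries 1 and 2. Cxcl10 in these cells was at 2642 CPM in treat day 3. Among EC-like, smooth muscle-like and fibroblast-like cells in treat day 3, the levels fell in that order for both genes.

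Epithelial-like cells, which hold the biliary epithelial cells (BEC), showed Cxcl9 at 0 to 3.00 CPM in sham, at 0.0877, 38.5 and 190 CPM in ctrl and at 0.280, 110 and 162 CPM in treat. On day 7 against day 1, with 11.4% of the genes called, Cxcl9 rose by 9.82 ± 0.70 (SE) on the log2 scale (adjusted p = 0.0117) and Cxcl11 by 8.14 ± 1.05 (adjusted p = 0.0210). Cxcl10, at 31.8 to 129 CPM in sham, was at 36.4, 195 and 420 CPM in ctrl and at 12.9, 1207 and 617 CPM in treat, with an adjusted p of 0.0610 on day 7. Treat day 7 fell to 251 CPM without its library 3, which held 15026 of the 19918 UMIs, and its ratio to ctrl went from 1.47 to 0.599. Without 1 library, ctrl was at 19.8 CPM on day 1 (library 2), 60.1 CPM on day 3 (library 1) and 222 CPM on day 7 (library 3), and treat day 3 was at 750 CPM (library 3). The 326 Cxcl9 UMIs of ctrl day 3 were all of library 1. On day 3, with 0.182% of the genes called, Cxcl9 rose (log2 fold change 8.49 ± 0.68, adjusted p = 0.0338). Without ctrl day 7 the adjusted p of Cxcl11 was 0.207, and without treat day 7 it was 0.102. With doublets kept that of Cxcl9 on day 3 was 0.0581. The cells of day 7 were mostly of cluster 1, which was a small part of the sham and day 1 cells.

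Neutrophil-like cells, a single cluster, were a source of Cxcl10 and far less of Cxcl9. Cxcl10 was at 16.2 and 54.5 CPM on day 1, at 671 and 3860 CPM on day 3 and at 169 and 369 CPM on day 7, for ctrl and treat in that order. Day 3 lay above day 7 and day 7 above day 1 in both groups. Treat day 1 was at 7.09 CPM without library 1, which turned its ratio to ctrl from 3.37 to 0.438. Ctrl day 7 was at 75.4 CPM without library 3 and at 343 CPM without library 2, ctrl day 3 at 317 CPM without library 1 and treat day 3 at 1822 CPM without library 2. In the thinned cells of treat day 3, 35.8% had a UMI of Cxcl10 and 2.24% had one of Cxcl9, against 8.42% and 0.813% of the T cell-like cells. By edgeR, Cxcl10 (log2 fold change 5.64 ± 0.55 (SE), adjusted p = 0.0018) and Cxcl11 (5.70 ± 0.67, adjusted p = 0.0044) rose on day 3, where 1.97% of the genes were called, and Cxcl10 on day 7 (3.13 ± 0.49, adjusted p = 0.0213), where 1.53% were called. Cxcl9 was called on both days, from 1 UMI on day 1 to 103 UMIs on day 3 and 46 on day 7. Without ctrl day 7, Cxcl10 on day 7 had an adjusted p of 0.344. With doublets kept, Cxcl9 had 0.0883 on day 7 and 0.0544 on day 3.

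Monocyte-like and macrophage-like cells, the phagocytes that are also known to answer interferon-gamma, carried all 4 ligands. In monocyte-like cells, Cxcl9 was at 6.35, 41.7 and 75.9 CPM in ctrl and at 13.5, 379 and 243 CPM in treat. The 52 UMIs of ctrl day 1 were all of library 1, as were 275 of the 276 of treat day 1, which was at 0.193 CPM without it; ctrl day 3 was at 16.4 CPM without library 1. On day 7, where 13.4% of the genes were called, Cxcl9 (log2 fold change 3.92 ± 0.59 (SE), adjusted p = 0.0073), Cxcl10 (2.36 ± 0.61, adjusted p = 0.0400), Cxcl11 (3.32 ± 0.54, adjusted p = 0.0103), Cxcl16 (2.49 ± 0.38, adjusted p = 0.0075) and Cxcr3 (2.51 ± 0.64, adjusted p = 0.0374) rose, and on day 3, where 1.36% were called, Cxcl9 and Cxcl11 did. All 5 calls of day 7 were lost at the finer clustering, with an adjusted p between 0.110 and 0.914, and all 5 without ctrl day 7, with 0.0654 to 0.309. Cxcl10 and Cxcr3 on day 7 had an adjusted p of 0.139 and 0.301 without treat day 1 and of 0.0818 and 0.104 without treat day 7. On day 3, Cxcl9 and Cxcl11 had 0.089 and 0.0672 without treat day 1, 0.0746 and 0.0608 with doublets kept and 0.0744 and 0.0571 at the finer clustering. With doublets kept, Cxcl10 and Cxcr3 on day 7 had 0.0615 and 0.0745. Monocyte-like cells of day 1 came mostly from cluster 10 (87.6% in ctrl and 83.3% in treat) and those of day 7 mostly from cluster 4. In macrophage-like cells, Cxcl9 was at 0.306, 50.8 and 153 CPM in ctrl and at 32.4, 422 and 343 CPM in treat. Library 1 held 221 of the 225 UMIs of treat day 1, which was at 1.01 CPM without it, and ctrl day 3 was at 2.40 CPM without library 1 and ctrl day 7 at 76.9 CPM without library 3. In these cells 0 of the 5 genes tested were called by edgeR on day 7 (adjusted p of Cxcl9 0.0780), with 4 at an unadjusted p under 0.05.

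Dendritic cell-like cells carried Cxcl9 at 466 CPM in ctrl day 1, from 29 cells, and at 17.5 CPM in treat day 1 (26.7 CPM without library 1). Cxcl11 was called there on day 7 (log2 fold change 4.52 ± 0.69 (SE), adjusted p = 0.0112 by edgeR, with 0.441% of the genes called) and on day 3 (6.58 ± 0.65, adjusted p = 0.0015, with 0.0134% of the genes called, which is this gene alone). With doublets kept the adjusted p was 0.481 on day 7 and 0.235 on day 3, and without treat day 1 it was 0.552 and 0.354. B cell-like cells had 1 call, Cxcl10 on day 3 (2.74 ± 0.58, adjusted p = 0.0288, with 0.309% of the genes called), and it was lost under 7 of its 11 alternatives, with an adjusted p of 0.581 without treat day 1, 0.870 without treat day 3, 0.272 at the finer clustering, 0.174 with free RNA subtracted, 0.119 with doublets kept, 0.112 with library size only and 0.0748 with libraries as samples.

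In T cell-like cells Cxcl9 was called on day 7 (adjusted p = 0.0233, with 1.54% of the genes called), at 0 UMIs on day 1 and at least 9.1-fold higher on day 7 against a floor of 3 UMIs over both day 1 samples. Its 139, 161 and 203 UMIs in ctrl day 7, treat day 3 and treat day 7 compared with 107, 104 and 160 UMIs expected from free RNA. After subtraction of free RNA the adjusted p was 0.181, and without treat day 1 it was 0.185.

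**Figure D4:**
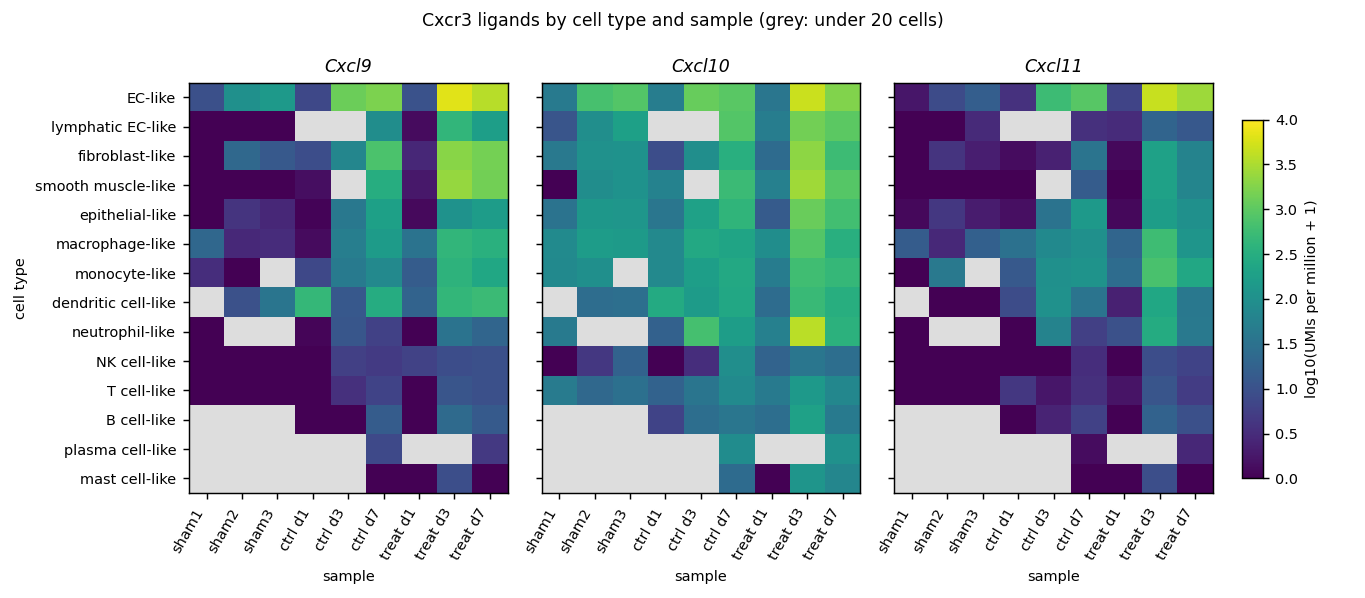
Levels of the Cxcr3 ligands as log10 of CPM plus 1, by cell type (rows) and sample (columns); grey marks under 20 cells. The row of EC-like cells is brightest for Cxcl9 and Cxcl11 on days 3 and 7, while Cxcl10 in treat day 3 is also high in neutrophil-like (3860 CPM), smooth muscle-like and fibroblast-like cells.

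Cxcl16 had other sources. Macrophage-like cells held it at 118 to 636 CPM and epithelial-like cells at 102 to 245 CPM over the 9 samples. Epithelial-like cells held 60.4% of its UMIs in sham and 40.1% on days 3 and 7, when they were 31.5% and 15.2% of the cells, and macrophage-like cells held 34.0% on days 3 and 7. In EC-like cells Cxcl16 on day 7 against day 1 had a log2 fold change of 0.43 ± 0.29 (SE, adjusted p = 0.424), and in epithelial-like cells 0.59 ± 0.20 (adjusted p = 0.106). In fibroblast-like cells it was at 21.0 to 43.5 CPM in sham, at 43.6 to 69.5 CPM in ctrl and at 47.0 to 81.7 CPM in treat, so that neither transplanted group overlapped with sham, with an adjusted p of 0.0990 and 0.139 by edgeR. Of all genes tested in these cells, 7.11% lay above sham without overlap in ctrl and 4.59% in treat. Without library 3 of treat day 1 that sample was at 29.1 CPM, and treat then overlapped with sham. In ctrl the gap was that between 43.6 CPM in ctrl day 3 and 43.5 CPM in sham1, the latter from 24 UMIs in 85 cells. Without library 2 or library 3, ctrl day 3 lay under sham1, and ctrl then overlapped with sham too. Different clusters made up these fibroblast-like cells, as said above.

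The order of the types was taken from the mean of log2 (CPM + 1) over samples and is a description. Neighbours shared at most 9 samples, so the smallest p of the two-sided exact sign-flip permutation test over samples is 0.0039, and 1 pair alone at that p among the 84 neighbour pairs of the 6 genes has an adjusted p of 0.328. The test was thus too small to say whether single neighbours differed. For Cxcl9 the order began with EC-like (7.65 on that scale), dendritic cell-like (6.41), fibroblast-like (5.53) and macrophage-like cells (4.80), and EC-like cells were above dendritic cell-like cells in 6 of 8 samples. The dendritic cell-like mean lacked sham1 and included ctrl day 1, whose 124 UMIs all came from 26 cells of library 1. The fibroblast-like mean included sham1 at 0 CPM. These means thus cover different samples, and the order of these types is not firm.

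Within types, ctrl against sham gave 0 calls in 26 pairs over 6 types by edgeR, with 6 at an unadjusted p under 0.05 and 2.42% of all gene and type pairs called. For treat against sham the counts were 0 of 26 and 15, with 0.424% of all pairs called. In EC-like cells Cxcl11 had a log2 fold change of 5.95 ± 2.12 (SE) in ctrl against sham (adjusted p = 0.174) and of 8.37 ± 2.32 in treat against sham (adjusted p = 0.256). In macrophage-like cells Cxcl11 was at a mean of 10.4 CPM in sham. It was at 69.9 CPM in ctrl (adjusted p = 0.134 by edgeR) and at 238 CPM in treat (adjusted p = 0.0735 by edgeR). Library 1 held all 99 of its UMIs in ctrl day 1 and 129 of the 131 in treat day 1. DESeq2 was run over all cells and not within types.

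Treat against ctrl asks what raised arterial flow adds at matched days. Over all cells edgeR called 0 of the 6 genes, where 0% of all genes were called; 1 gene had an unadjusted p under 0.05, which was Cxcl11 at a log2 fold change of 1.5 ± 0.55 (SE, adjusted p = 0.893), and DESeq2 called 0. Within types, 0 of 43 pairs over 10 types were called, 16 had an unadjusted p under 0.05, and 0.00872% of all gene and type pairs were called. In EC-like cells the log2 fold change was 2.12 ± 0.44 for Cxcl11 (adjusted p = 0.265) and 1.55 ± 0.40 for Cxcl9 (adjusted p = 0.302), and in neutrophil-like cells 3.04 ± 0.52 for Cxcl11 (adjusted p = 0.132). The groups did not overlap in 1 of the 43 pairs, against 8.44% of all gene and type pairs tested. This was Cxcr3 in NK cell-like cells, at 51.9, 72.8 and 45.2 CPM in ctrl and 29.9, 21.0 and 19.2 CPM in treat, with a log2 fold change of -1.24 ± 0.25 (adjusted p = 0.148). The groups overlapped without library 1 of ctrl day 1 (26.9 CPM).

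The ratio of treat to ctrl differed from day to day, with 1 sample of each group a day and hence no test over samples. In EC-like cells the ratio for Cxcl9 was 1.42 on day 1, 5.27 on day 3 and 2.34 on day 7, and for Cxcl11 it was 2.04, 8.14 and 2.83. For Cxcl10 it was 0.752, 4.0 and 1.85. Day 3 had the highest ratio for all 3 genes. Without library 1 of treat day 1 the ratio of Cxcl9 on day 1 was 0.725, and without library 3 of ctrl day 7 that of Cxcl11 on day 7 was 4.57.

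On day 3, treat was above ctrl in 8 of 8 types for Cxcl9 (ratio 2.86 to 37.3, median 6.79), in 9 of 9 types for Cxcl10 (3.27 to 21.9, median 4.0) and in 7 of 7 types for Cxcl11 (2.31 to 147, median 6.97). On day 7 it was above in 10 of 13, 12 of 14 and 10 of 11 types, with medians of 1.94, 1.51 and 1.77. On day 1 it was above in 3 of 5, 4 of 9 and 2 of 4 types. Over all gene and type pairs, treat was above ctrl in 60.4% on day 1, 35.3% on day 3 and 63.1% on day 7. Types with under 20 cells, or with 3 or fewer UMIs of the gene, in either sample were left out of these counts. Types of 1 sample share its libraries and its free RNA, so they are not separate evidence. With free RNA subtracted, the counts of day 3 were 8 of 8, 9 of 9 and 6 of 6 types. Leaving out 1 library turned the direction on day 3 in 0 types for Cxcl9 and Cxcl11 and in 1 for Cxcl10, which was T cell-like cells (0.918 without library 1 of ctrl day 3). On day 7 it did so in 2 types for Cxcl9, 8 for Cxcl10 and 2 for Cxcl11, and on day 1 in 1, 4 and 1. Library 1 of ctrl day 3 could be left out only where the rest of that sample kept enough cells and UMIs for these counts. That was not so in EC-like, B cell-like and dendritic cell-like cells, nor for Cxcl9 in epithelial-like cells. The check therefore does not cover the library on which those ctrl day 3 values rest.

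With each library taken as a sample, treat against ctrl on day 3 was compared with that on day 1, which compares these libraries and not groups of rats. For Cxcl10 over all cells the difference was 3.42 ± 0.70 (SE) on the log2 scale (adjusted p = 0.0398 by edgeR, with 1.76% of all genes called). For Cxcl9 it was 3.12 ± 1.51 (adjusted p = 0.241) and for Cxcl11 3.36 ± 1.90 (adjusted p = 0.316). Libraries are not known to be separate rats, and ctrl day 3 rests mainly on 1 library.

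Cxcr3, the receptor of the 3 ligands, was found in T cell-like and NK cell-like cells and at lower levels in dendritic cell-like and plasma cell-like cells. In T cell-like cells it was at 114, 70.9 and 58.4 CPM in sham, at 53.3, 49.2 and 54.6 CPM in ctrl and at 35.2, 41.2 and 61.6 CPM in treat. Without library 1, ctrl day 1 was at 18.4 CPM from 5 UMIs and treat day 7 at 38.8 CPM. All 3 ctrl samples lay below all 3 sham samples, as groups did without overlap, in either direction, for 18% of the genes tested in these cells. Library 1 alone was at 69.3 CPM in ctrl day 1 and at 71.9 CPM in ctrl day 7, above sham3. Without library 3, ctrl day 1 and ctrl day 7 each lay above sham3, and the groups then overlapped. Against sham the log2 fold change was -0.57 ± 0.30 (SE) in ctrl (adjusted p = 0.380 by edgeR) and -0.79 ± 0.30 in treat (adjusted p = 0.245), and on day 7 against day 1 the log2 fold change was 0.43 ± 0.26 (adjusted p = 0.587).

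The share of T cell-like cells among all cells had a wider range. They were 3.70%, 1.31% and 1.84% of the cells in sham, 2.11%, 6.39% and 19.2% on days 1, 3 and 7 in ctrl and 3.43%, 15.2% and 21.2% in treat. They held 57.5% of Cxcr3 UMIs in sham and 73.3% on days 3 and 7 (range 68.2% to 82.3%). Over 3 samples against 3, the exact two-sided permutation test of their share gave p = 0.2 for either transplanted group against sham, where the smallest p possible is 0.1.

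In NK cell-like cells Cxcr3 was at 67.0, 27.1 and 17.1 CPM in sham, from 8, 8 and 7 UMIs, so these 3 values are imprecise. After LT it was between 19.2 and 72.8 CPM. Without library 1, ctrl day 1 was at 26.9 CPM, and treat day 3, with 16 UMIs, was at 34.4 CPM without library 3 and at 9.69 CPM without library 2. Dendritic cell-like cells had 5.20 to 22.3 CPM, plasma cell-like cells 4.84 CPM in ctrl day 7 and 14.9 CPM in treat day 7 from 13 and 74 UMIs, macrophage-like cells at most 5.72 CPM, and EC-like, epithelial-like and fibroblast-like cells at most 1.06 CPM. After thinning, 6.32% of T cell-like cells of treat day 7 had a UMI of Cxcr3, against 0.0424% of epithelial-like cells (medians of 3441 and 3184 UMIs per cell).

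Cxcr6 was rarer. In T cell-like cells it was at 39.0, 9.25 and 25.5 CPM in sham, at 30.1, 8.03 and 15.7 CPM in ctrl and at 11.2, 4.61 and 14.4 CPM in treat. Day 3 was the lowest day in both transplanted groups, with 31 and 72 UMIs, although ctrl day 3 was at 14.5 CPM from 2 UMIs without library 1, and ctrl day 7 at 9.59 and 26.6 CPM without libraries 1 and 3. The log2 fold change of day 3 against day 1 was -1.55 ± 0.38 (SE, adjusted p = 0.132 by edgeR). In NK cell-like cells Cxcr6 was at 41.9, 23.7 and 2.45 CPM in sham, from 5, 7 and 1 UMIs. After LT it was at 35.9, 14.1 and 4.16 CPM in ctrl and at 18.6, 13.1 and 4.18 CPM in treat. It fell on day 7 against day 1 by 2.48 ± 0.44 on the log2 scale (adjusted p = 0.0062, with 2.16% of the genes called). The day 1 samples held 18 UMIs each, day 7 was at 2.44 and 7.90 CPM in ctrl without libraries 1 and 3 and at 2.46 CPM in treat without library 1, and the adjusted p was 0.345 without ctrl day 1, 0.075 without treat day 1 and 0.0884 with libraries as samples.

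In some clusters the receptors were also seen apart from each other. Outside the named types, cluster 23 (2104 cells, with Gata3, Il2ra and Tnfrsf18 among its leading genes) had Cxcr6 at 51.2 CPM from 372 UMIs and Cxcr3 at 1.10 CPM. Its Cxcr6 was between 18.6 and 90.8 CPM in the 9 samples. Cluster 33 (678 cells, with Siglech, a marker of plasmacytoid dendritic cells, among its leading genes) had Cxcr3 at 43.1 CPM. Its Cxcr6 came to 2 UMIs in treat day 7 and to 0 in each other sample with at least 20 cells. The unnamed cluster 27 held both receptors, each at 36.15 CPM from 58 UMIs. It had 1701 cells with a median of 758 UMIs, and Lag3 and Faslg were among its leading genes. Its Cxcr6 came to 34 UMIs in ctrl day 7 and 23 UMIs in treat day 7. Unnamed cells held a mean of 63.3% of the Cxcr6 UMIs of a sham sample (range 24% to 88.2%, with sham1 the lowest) and 8.81% on day 7 (range 6.88% to 10.7%), when T cell-like cells held 82.8%.

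Among the T cell-like cells, cluster 9 had both receptors at 76.0 CPM for Cxcr3 and 28.3 CPM for Cxcr6, and cluster 2 had them at 43.2 and 6.81 CPM. At the finer clustering, a cluster with Cd8a, Cd8b and Ccl5 detected held Cxcr3 at 73.5 CPM and Cxcr6 at 36.6 CPM. Ccr6, listed for Il17a-expressing T cells, was also detected there. A cluster with Cd4, Cd40lg, Icos and Tnfrsf4, markers of helper T cells, held the receptors at 68.5 and 16.4 CPM. Il2ra, listed for regulatory T cells, was also detected in it. A cluster of 5422 cells, with Cd8a and Ccl5 among its leading genes, held them at 31.7 and 1.73 CPM. No listed subset marker was counted as detected in it, nor in a cluster of 2253 cells with the receptors at 48.0 and 7.625 CPM. In the latter, with a median of 9857 UMIs per cell, 31.4% of cells had Cxcr3. The cluster at 73.5 CPM of Cxcr3 had 1328 and 1466 of its 2891 cells in ctrl day 7 and treat day 7.

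**Figure D5:**
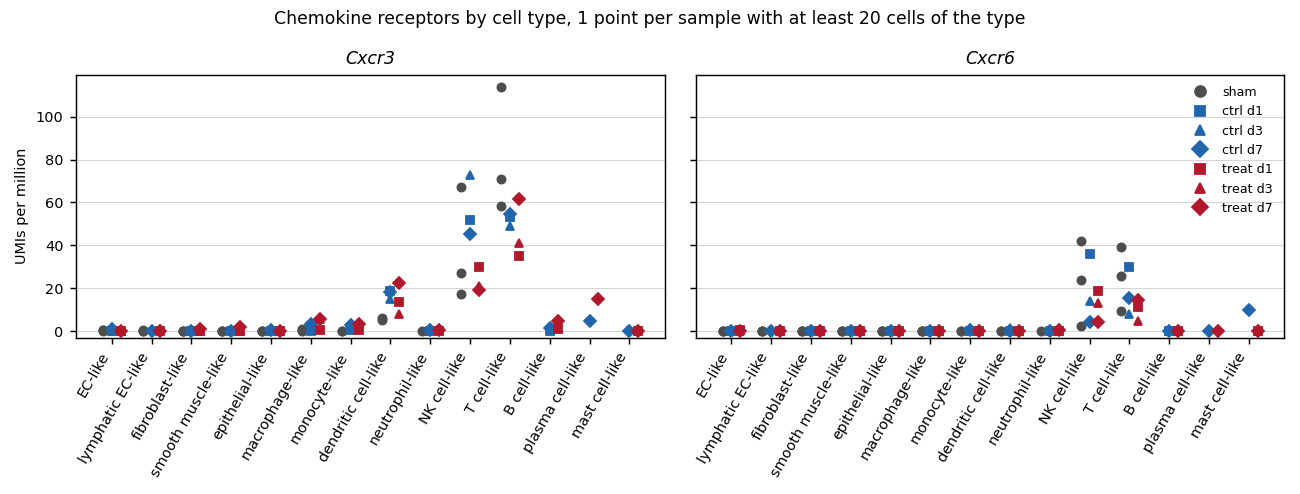
Levels of Cxcr3 and Cxcr6 in CPM by cell type, with 1 point per sample with at least 20 cells of the type; shapes and colours give group and day. Points above 20 CPM lie among T cell-like and NK cell-like cells, apart from 1 point of dendritic cell-like cells for Cxcr3.

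Ifng, which encodes the inducer of the 3 ligands, was counted mainly in T cell-like and NK cell-like cells. In T cell-like cells it was at 42.3, 136 and 36.5 CPM in sham, at 9.26, 38.1 and 23.3 CPM in ctrl and at 21.8, 20.5 and 46.4 CPM in treat. In NK cell-like cells it was between 20.3 and 101 CPM. EC-like cells had at most 0.599 CPM. The log2 fold change of Ifng in T cell-like cells was 1.03 ± 0.41 (SE) on day 7 against day 1 (adjusted p = 0.340 by edgeR), and over all cells it was 3.82 ± 0.30 (adjusted p = 0.0523).

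Among 20 interferon-gamma targets other than the chemokines, 15 of the 18 tested in EC-like cells rose on day 7 and 12 on day 3, where 4.36% and 0.594% of all genes were called, with a median log2 fold change of 3.45 and 3.55, against 0.01 and 0.00 over all genes tested in these cells. They included Ubd, a ubiquitin-like modifier (log2 fold change 11.6 on day 7, from 8 UMIs on day 1), and the guanylate-binding protein Gbp5, which acts in defence inside the cell (5.27 on day 3 and 4.91 on day 7). Ido1, which breaks down tryptophan and restrains T cells, went from 0 UMIs on day 1 to a mean of 36.1 CPM on day 7, and Gbp1 from 1 UMI to 62.7 CPM.

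The same list had 13 of 16 genes higher on day 7 in fibroblast-like cells, 16 of 20 in epithelial-like cells and 10 of 17 in neutrophil-like cells, where 30.6%, 11.4% and 1.53% of all genes tested were called. On day 3 the counts were 10 of 16, 5 of 20 and 14 of 17, beside 20.4%, 0.182% and 1.97% of all genes. In T cell-like cells it had 2 of 13 on day 7 (1.54% of all genes), which were Gbp4 and Gbp5, and 0 of 13 on day 3 by edgeR, with 5 at an unadjusted p under 0.05. The epithelial-like cells had Ido1 at a mean of 0.0817 CPM on day 1 and 46.3 CPM on day 7.

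Of the 25 genes of the type I interferon response, 10 of 24 tested rose in EC-like cells on day 7 and 2 on day 3, beside the same 4.36% and 0.594% of all genes, with Mx1, an antiviral GTPase, at a log2 fold change of 4.22 on day 7. Of 6 NF-kappaB and TNF genes tested, 0 were called in EC-like cells on either day by edgeR, and 0 had an unadjusted p under 0.05. Il15, a cytokine that sustains T and NK cells, rose in EC-like cells on day 7 against day 1 by 2.11 (adjusted p = 0.0423 by edgeR). It was at 13.8, 5.59 and 5.04 CPM in sham, at 3.38 and 8.93 CPM on days 1 and 7 in ctrl, and at 3.17 and 20.9 CPM in treat.

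Dpp4 encodes the protease that trims and inactivates the 3 Cxcr3 ligands. In EC-like cells it was at 13.1, 3.92 and 5.60 CPM in sham, at 1.84, 9.35 and 22.3 CPM in ctrl and at 3.52, 13.8 and 41.5 CPM in treat. It rose by 3.51 on the log2 scale on day 7 (adjusted p = 0.0035 by edgeR) and by 2.14 on day 3 (adjusted p = 0.0341). It was the 1 gene called of 4 tested for trimming, shedding and decoys, where 4.36% and 0.594% of all genes were called. Ackr3, a scavenging receptor for Cxcl11, rose in fibroblast-like cells on day 7 against day 1 by 1.06 (adjusted p = 0.0224 by edgeR). Of all genes tested there, 30.6% were called. Ackr3 was at 496, 516 and 453 CPM in sham, at 213 and 409 CPM on days 1 and 7 in ctrl, and at 273 and 838 CPM in treat. Both day 1 samples and ctrl day 7 thus lay under all sham samples.

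Genes of type 1 lymphocytes rose in T cell-like cells on day 7 in 5 of the 13 tested, where 1.54% of all genes were called, among them Prf1 (log2 fold change 2.93), Ccl5 (2.92), Nkg7 (2.9) and Tbx21 (1.29). These encode a killing protein, a chemokine, a granule protein and the master factor of type 1 cells. Ifngr2, a chain of the interferon-gamma receptor, fell by 2.87 in the same cells. The makeup of the T cell-like cells moved with these genes, since cluster 2 was 94.8% and 92.9% of them on day 1 and 54.7% and 50.5% on day 7 in ctrl and treat. Of the same list, Nkg7, Ccl5 and Prf1 also rose in epithelial-like cells and fibroblast-like cells on day 7, where 11.4% and 30.6% of all genes tested were called. Nkg7 was at a mean of 0.388 CPM on day 1 and 19.8 CPM on day 7 in the former and at 0.198 and 10.6 CPM in the latter. The part of lymphocyte RNA in the calls of these types was not tested.

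Over the 15 types, the genes whose mean levels were most like those of a member, among 8803 genes, were Tlr3 for Cxcl9 (Pearson r = 0.832), Ube2l6 for Cxcl10 (r = 0.857), Abcg2 for Cxcl11 (r = 0.881) and Cd14 for Cxcl16 (r = 0.905). For Cxcr3 it was Sla2 (r = 0.884), followed by Podnl1, Cd96, Il2rb and Hmgb2. For Cxcr6 it was the unnamed gene AABR07027872.1 (r = 0.994), followed by Ifng (r = 0.993). The types come from the same libraries, so these values are descriptions.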

How the data were processed

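The deposited files held UMI counts per gene and barcode, empty barcodes included, which the authors had made with Cell Ranger (5.0.1 per the labels, with Seurat 3.2.0 also named). The genome build is not given in the sources used here. Tissue was digested with collagenase and dispase, red blood cells were lysed and dead cells removed before 10x 3' libraries were made. Cells were kept where more than 400 and fewer than 6000 genes were detected and where mitochondrial genes took less than 25% of UMIs and hemoglobin genes less than 3%, and the 7.5% of cells with the highest doublet score in each library were removed. These limits follow those the study's methods state for its human data. Cells were clustered by Leiden at resolution 0.9 (leidenalg 0.10.2) on 30 components of 2000 variable genes with 20 neighbours. A cluster was named from at least 3 listed markers, each in over 10% of its cells and over 2-fold above the rest; this rule was settled after leading genes had been seen.

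UMI counts were summed per sample, and per sample and type with at least 20 cells, and tested with edgeR 4.0.16 (R 4.3.3, TMM factors, quasi-likelihood F test, Benjamini-Hochberg adjustment over all genes tested). Both sham comparisons were fitted on all 9 samples, and treat against ctrl with day as a block. Day 7 and day 3 against day 1 were fitted on the 6 transplanted samples with the group as a term. The day 3 comparison, the test of the flow effect between days, with libraries as samples, the counts of types with free RNA subtracted and the levels with 1 library left out were chosen after the data had been seen. Intervals and floors cover counting error only. The members, partner lists and markers were chosen with earlier results of these data known. Named partner genes were the inducer Ifng and up to 4 called genes of largest change per list and comparison, and some genes of the lists are not reported here. Alternatives were DESeq2 1.42.0 (over all cells only), library size scaling, no filter on low counts, libraries as samples, doublets kept, free RNA subtracted, a minimum of 1000 UMIs, finer clusters (resolution 2) and each sample left out. The fits were tested on simulated data. For day 7 against day 1 over all cells, 63 of 66 genes changed by 6 on the log2 scale were called, 55 of 67 changed by 3 and 2 of 67 changed by 1. In EC-like cells these counts were 63 of 66, 63 of 67 and 10 of 67. In the measured data, the same comparison over all cells called 0 of 16207 genes. The simulated counts over all cells thus do not give the share of true changes that this fit can find. Library 1 of treat day 3 was not analysed here.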

Additional observations from a re-analysis of the deposited data

Results flagged for a closer look

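For Cxcl10 over all cells, the difference between treat and ctrl was compared between days with each library taken as a sample, since there is 1 sample per group and day. Over these libraries, treat against ctrl was higher on day 3 than on day 1 by 3.42 ± 0.70 (SE) on the log2 scale (adjusted p = 0.0398 by edgeR over all genes). The difference between day 3 and day 7 was 2.12 (adjusted p = 0.648). Within types the difference between day 3 and day 1 for Cxcl10 was 2.56 ± 0.82 in EC-like cells (adjusted p = 0.477) and 5.08 in epithelial-like cells (adjusted p = 0.396). Libraries of 1 sample may come from the same rat, which the labels do not say, and 6869 of the 7605 cells of ctrl day 3 came from 1 library.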

How the results depend on the processing

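Over all cells, DESeq2 called 1 of the 6 genes in ctrl against sham, 2 in treat against sham, 5 on day 7 and 4 on day 3 against day 1, where edgeR called 0. Over all genes the edgeR and DESeq2 counts were 1392 and 3604 in ctrl against sham, 0 and 2306 in treat against sham, 0 and 134 in treat against ctrl, 0 and 1893 on day 7 and 0 and 680 on day 3. With libraries as samples the counts over all genes were 2102, 568, 0, 3881 and 1545 in the same order, and with library size only 2405, 115, 0, 322 and 1, which moved the median log2 fold change of all genes by -0.35 in ctrl against sham and by -0.29 in treat against sham. With only the compared groups fitted, ctrl against sham had 504 and treat against sham 5 calls over all genes, and on day 7 there were 128 with doublets kept and 202 with no filter on low counts. On day 7 the count of the 6 genes was 6 with libraries as samples, 3 with library size only, 1 with doublets kept and 1 with no filter on low counts, and on day 3 it was 4 with libraries as samples. Where a sample of a compared day is left out, that day has 1 sample, and the share of all genes called is not given here. Counts of such fits below are therefore not read as results about the 6 genes. Leaving out each sample gave 0 to 1 calls in ctrl against sham, 0 to 5 on day 7 and 0 to 4 on day 3, and 0 throughout in treat against sham and treat against ctrl. Within types, treat against ctrl gave 3 calls with library size only and 1 to 7 with a sample left out, against 0. Shares of all gene and type pairs called are not given here for the alternative fits within types. Counts of calls in those fits are therefore not read as results about the 6 genes. Day 7 gave 18 calls, and 8 to 31 with a sample left out. Day 3 gave 14 calls, 7 with doublets kept and 10 to 32 with a sample left out. Of the 32 within-type calls of both days, 19 were lost without treat day 1, 12 without ctrl day 7, 11 with doublets kept, 8 at the finer clustering, 5 without treat day 7, 4 with free RNA subtracted, 2 with libraries as samples, and 1 each with library size only, without ctrl day 1 and without treat day 3; in all 29 were lost under at least 1 alternative, 0 turned direction, and the cause was not tested. Over all cells, uncalled log2 fold changes near 0 turned direction. With library size only, Cxcl16 was at -0.056 in ctrl against sham and at -0.196 in treat against sham, and Cxcr6 at -0.233 in treat against sham, where it was also at -0.00926 with libraries as samples. With a sample left out, Cxcr6 ranged from -0.288 (without ctrl day 7) to 0.738 in ctrl against sham and from -0.655 (without treat day 7) to 0.380 in treat against sham, where it was at -0.145 without sham3. In the same way Cxcl16 ranged from -0.0314 (without sham2, and -0.0215 without sham3) to 0.628 in treat against sham, and Cxcl10 from -0.0304 (without treat day 3, and -0.0106 without ctrl day 3) to 1.44 in treat against ctrl. Treat against ctrl was fitted with the day as its replicate block, which pairs the 2 samples of a day; without the block it gave 0 calls over all cells and 0 within types. Sham samples have no day, so they could not be paired. Low UMI numbers limit both receptors, and cluster makeup differed between days in fibroblast-like, monocyte-like, macrophage-like and epithelial-like cells.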

Other observations

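An unnamed cluster of 739 cells (cluster 32), with the vessel genes Plvap, Tm4sf1 and Col4a1 and the lymphoid chemokine Ccl19 among its leading genes, followed the EC-like cells in Cxcl9. Its level was at 6.39 and 3.13 CPM on day 1 in ctrl and treat, at 1527 CPM in ctrl day 7, and at 5712 and 3170 CPM in treat days 3 and 7. In sham2 and sham3 it was at 227 and 137 CPM. The Siglech-bearing cluster 33 kept Cxcr3 between 25.3 and 55.1 CPM in the 7 samples with at least 20 of its cells, sham and transplanted alike. No hypothesis was tested on these values.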
